A study of Mus musculus with 6 samples.

Results

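The genes described here are Plau, Plaur, Serpine2 and Procr, which cover plasminogen activation at the cell surface and the receptor of protein C. They were picked by symbol from the 16108 genes of the deposited expression table, all 4 were present, and they were chosen with the difference between the acoustics-on and acoustics-off libraries already known. That difference is therefore given for these 4 genes as a description, with no test. RNA was sequenced from RAW264.7 cells, a mouse macrophage-like line, in 3 acoustics-on and 3 acoustics-off libraries. The acoustics-on cells had attached to acoustic devices overnight and were then driven for 48 h at 18 V peak to peak and 5 kHz. The acoustics-off cells were kept on the same kind of device for 48 h without drive. Cells on petri dishes, which the design text also mentions, were not analysed here. Nothing says that the 3 libraries of a group were separate cultures, so SDs and p-values measure only the spread between these libraries, which may be technical.

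Plau encodes urokinase, a secreted serine protease that cuts plasminogen into plasmin. Plaur encodes the urokinase receptor, a lipid-anchored surface protein that holds the protease at the membrane, where plasmin can degrade fibrin and matrix around a moving macrophage. Serpine2 encodes protease nexin-1, a serpin that inactivates urokinase and thrombin. Procr encodes the endothelial protein C receptor, which presents protein C to the complex of thrombin and thrombomodulin for activation and is best known from the vessel wall.

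All 4 genes are protein-coding, and none overlaps another gene in GENCODE M21 (GRCm38). Plau lies on chromosome 14 from 20836660 to 20843385 on the plus strand, and its longest coding transcript has 11 exons. Plaur lies on chromosome 7 from 24462484 to 24475968 on the plus strand, with 7 exons. Serpine2 lies on chromosome 1 from 79794197 to 79861180 on the minus strand, with 9 exons. Procr lies on chromosome 2 from 155751117 to 155755471 on the plus strand, with 4 exons.

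Promoter windows are shown to give the sequence before the RefSeq start of a gene, with the letters of 4 motifs searched in it. The matches are not set against the levels of the genes, which were chosen by those levels. RefSeq promoters (GRCm38.p6) were matched for 3 of the 4 genes, and Plau had no entry. Positions count from the RefSeq start, which can differ from the GENCODE start of the gene. The Serpine2 window lies inside the GENCODE gene, whose start on the minus strand is 79861180. The Procr window runs to 155751216, past the GENCODE start at 155751117. The letters searched on both strands in the 250 bases before the start were TGANTCA, the core bound by AP-1 factors, and TGACNNNGC, the core of the antioxidant response element bound by NRF2. Capitals mark these matches, and bases that GENCODE M21 places in an exon were left off. The Procr stretch is chr2:155750967-155751116 (plus strand), the Plaur stretch chr7:24462233-24462482 (plus strand) and the Serpine2 stretch chr1:79858697-79858915 (minus strand), each written 5′ to 3′.
Procr: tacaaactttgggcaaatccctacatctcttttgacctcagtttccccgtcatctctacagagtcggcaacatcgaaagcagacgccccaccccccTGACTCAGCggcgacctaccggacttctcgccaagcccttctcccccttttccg
Plaur: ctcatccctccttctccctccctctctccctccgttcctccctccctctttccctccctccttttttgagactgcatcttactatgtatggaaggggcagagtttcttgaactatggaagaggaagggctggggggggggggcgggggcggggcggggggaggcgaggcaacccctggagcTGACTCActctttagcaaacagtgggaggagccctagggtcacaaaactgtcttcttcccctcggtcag
Serpine2: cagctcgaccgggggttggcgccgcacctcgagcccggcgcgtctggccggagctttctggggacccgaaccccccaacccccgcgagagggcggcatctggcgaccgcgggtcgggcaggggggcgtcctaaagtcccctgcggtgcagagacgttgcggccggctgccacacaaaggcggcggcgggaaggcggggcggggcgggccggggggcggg

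In Procr the match to TGANTCA lies inside the match to TGACNNNGC. Thus 1 stretch of 9 bases, from -154 to -146 relative to the RefSeq start, fulfils both patterns. In Plaur the match to TGANTCA runs from -69 to -63, and TGACNNNGC has no match there. Of the 32851 promoter windows of the same length, 6.75% hold TGANTCA and 10.2% hold TGACNNNGC. The GC-box letters GGGCGG, bound by SP1, occur 3 times in the Plaur window, 6 times in the Serpine2 window and not in the Procr window, against 32.7% of all windows with a match. The letters GAGGAA, a core of PU.1 sites, occur 2 times in the Plaur window and not in those of the other two, against 23.3% of all windows. A match is a description of the letters and does not show that a factor binds.

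Levels are given in FPKM, fragment counts scaled to transcript length and sequencing depth, so that levels of different genes can be set side by side. Plau was the most abundant of the 4 genes in every library. It had 431, 111 and 297 FPKM in acoustics-on replicates 1, 2 and 3, against 101, 104 and 107 FPKM in acoustics-off replicates 1, 2 and 3. The acoustics-on group lay above the acoustics-off group, but its replicate 2 stood only 1.04 times above the highest acoustics-off library, while replicates 1 and 3 were far above. Means were 279.6 ± 160.5 FPKM with acoustics on and 104 ± 2.73 FPKM with acoustics off (SD, n = 3 each), a ratio of 2.69. In bulk RNA, more RNA per cell and more cells that carry it cannot be told apart.

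The spread of Plau differed between the groups. Its highest acoustics-on library held 3.87 times the lowest, and its highest acoustics-off library 1.05 times the lowest. On the log2(FPKM + 1) scale the SD of Plau was 1.00 with acoustics on, above that of 98.8% of the genes tested, and 0.037 with acoustics off, above that of 18.5%. The medians over the genes tested were 0.28 with acoustics on and 0.076 with acoustics off. The authors' deposited table gives Plau a mean of 18087 normalised counts, for which counting error alone is a coefficient of variation of 0.74%.

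Plaur, the receptor of urokinase, had 57.7, 36.4 and 31.3 FPKM in acoustics-on replicates 1, 2 and 3, against 21.8, 25.8 and 21.2 FPKM in acoustics-off replicates 1, 2 and 3. The groups did not overlap, and the lowest acoustics-on library was 1.21 times the highest acoustics-off library. Means were 41.8 ± 14.0 FPKM with acoustics on and 22.9 ± 2.52 FPKM with acoustics off (SD, n = 3 each), a ratio of 1.82. The acoustics-on library with the most Plaur, replicate 1, was also the one with the most Plau, but replicates 2 and 3 took opposite orders for protease and receptor.

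Serpine2, the inhibitor, had 2.70, 2.52 and 2.07 FPKM in acoustics-on replicates 1, 2 and 3, against 2.22, 2.81 and 2.28 FPKM in acoustics-off replicates 1, 2 and 3. The groups overlapped throughout, with an acoustics-on library lowest and an acoustics-off library highest. Means were 2.43 ± 0.326 FPKM with acoustics on and 2.44 ± 0.326 FPKM with acoustics off (SD, n = 3 each). The 95% interval of the log2 difference, on the log2(FPKM + 1) scale, ran from -0.34 to 0.33, so a change within that range stays possible. At so low a level this scale understates a change. The SE of the log2 fold change in the authors' deposited table was 0.23.

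Procr, the protein C receptor, had 48.2, 25.4 and 47.8 FPKM in acoustics-on replicates 1, 2 and 3, against 2.01, 2.73 and 2.68 FPKM in acoustics-off replicates 1, 2 and 3. The groups were far apart, with the lowest acoustics-on library at 9.30 times the highest acoustics-off library. Means were 40.5 ± 13.1 FPKM with acoustics on and 2.48 ± 0.402 FPKM with acoustics off (SD, n = 3 each), a ratio of 16.3. Its mean FPKM lay above that of 84.8% of all genes with acoustics on and above that of 40.8% with acoustics off. With acoustics off Procr and Serpine2 were at about the same FPKM, and their acoustics-off ranges overlapped.

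**Figure D1:**
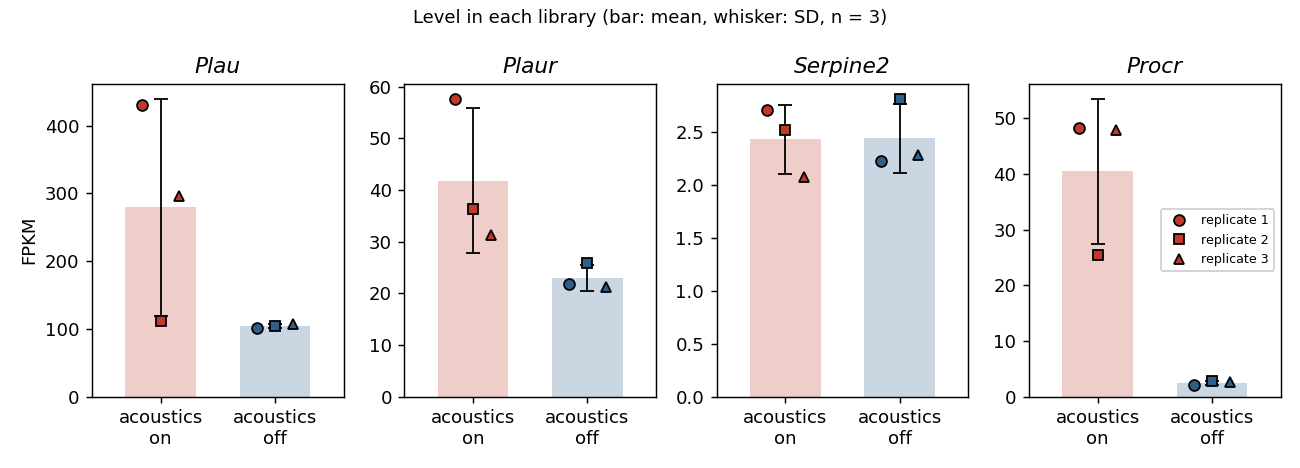
FPKM of Plau, Plaur, Serpine2 and Procr in the 3 acoustics-on (red) and 3 acoustics-off (blue) libraries, with bars for means, whiskers for SDs and a marker shape for each replicate; each panel has its own vertical axis from 0. Procr was at 25.4 to 48.2 FPKM with acoustics on and 2.01 to 2.73 with acoustics off, Plau in acoustics-on replicate 2 lay next to the acoustics-off libraries, and Serpine2 overlapped between the groups.

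The log2 differences, acoustics on minus off on the log2(FPKM + 1) scale, were 3.53 for Procr (SE 0.26), 1.21 for Plau (SE 0.45), 0.79 for Plaur (SE 0.23) and -0.0039 for Serpine2 (SE 0.14). This scale understates the change of low genes. Among the 11664 genes tested, Procr had the 4th largest positive difference, and Plau stood at place 145, Plaur at 349 and Serpine2 at 5528. Over all genes, 2.07% of those tested were past the threshold (limma, adjusted p under 0.05), and no call is given for the 4 genes. The groups did not overlap for 3 of the 4, where that held for 34.8% of the genes tested. This count of 3 comes from the contrast by which the genes were chosen, so nothing is read from it.

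In the authors' deposited table, the log2 fold changes were 4.03 for Procr (SE 0.31), 1.43 for Plau (SE 0.41), 0.86 for Plaur (SE 0.27) and -0.0057 for Serpine2 (SE 0.23). That table is computed on counts of the same libraries and gives the same order of the 4 genes. Its mean normalised counts were 1022 for Procr, 1724 for Plaur and 215 for Serpine2, for which counting error alone is 3.13%, 2.41% and 6.83%.

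**Figure D2:**
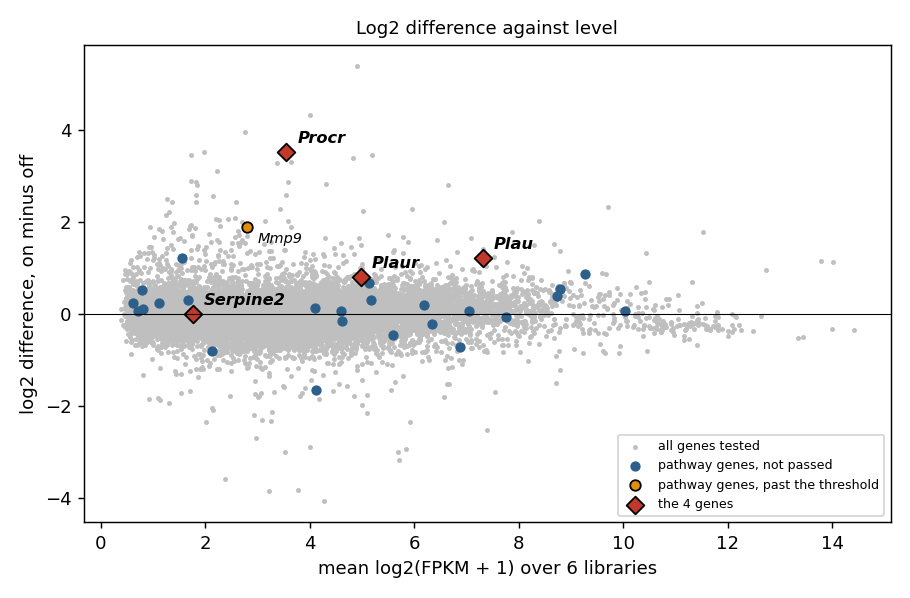
Log2 difference (acoustics on minus off, log2(FPKM + 1)) of every gene tested, against its mean log2(FPKM + 1) over the 6 libraries; red diamonds are Procr, Plau, Plaur and Serpine2, and blue and orange points the other plasminogen, protein C and coagulation genes. Procr at 3.53 lies far above the bulk of the 11664 genes, and Serpine2 at -0.0039 lies within it.

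Acoustics-on replicate 2 was the lowest acoustics-on library for Procr and for Plau, replicate 3 for Plaur and Serpine2. Over the 175 genes that rose with acoustics on, replicate 2 was the lowest acoustics-on library for 66.3%, against 21.1% of all genes tested. Without replicate 2 the log2 difference of Plau was 1.77 and that of Procr 3.82, and without replicate 1 they were 0.80 and 3.37. For Plau this moved the difference by over 1.5 times, down to 0.80 without replicate 1.

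A trend with transcript length ran through some libraries and bears on Plaur. Against the acoustics-off mean, short transcripts were higher in acoustics-on replicate 1, where the median log2 deviation was 0.60 for the shortest 20% of 9967 coding genes and -0.63 for the longest 20%. The corresponding values were 0.20 and -0.21 in acoustics-on replicate 2, and -0.012 and 0.012 in replicate 3. Plaur, with a transcript of 1506 bases, and Procr, with 1597 bases, both fall in the shortest 20% of tested coding genes, which ends at 1743 bases. Plau and Serpine2 have transcripts of 2342 and 2210 bases, below the median of 3054 bases.

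With the length and GC trend divided out of each library, the log2 deviation of Plaur from the acoustics-off mean was 0.87, 0.49 and 0.45 in acoustics-on replicates 1, 2 and 3, against 1.30, 0.65 and 0.44 as deposited. The receptor thus stayed above the acoustics-off mean in all 3 acoustics-on libraries, with a smaller spread between them. The log2 difference of Plaur was then 0.60 (SE 0.14), that of Plau 1.17 (SE 0.46), that of Procr 3.38 (SE 0.26) and that of Serpine2 -0.049 (SE 0.12). Without acoustics-on replicate 1 and with no such correction, Plaur was at 0.54 (SE 0.12), and with both changes together, a setting chosen after seeing the data, at 0.475 (SE 0.086).

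**Figure D3:**
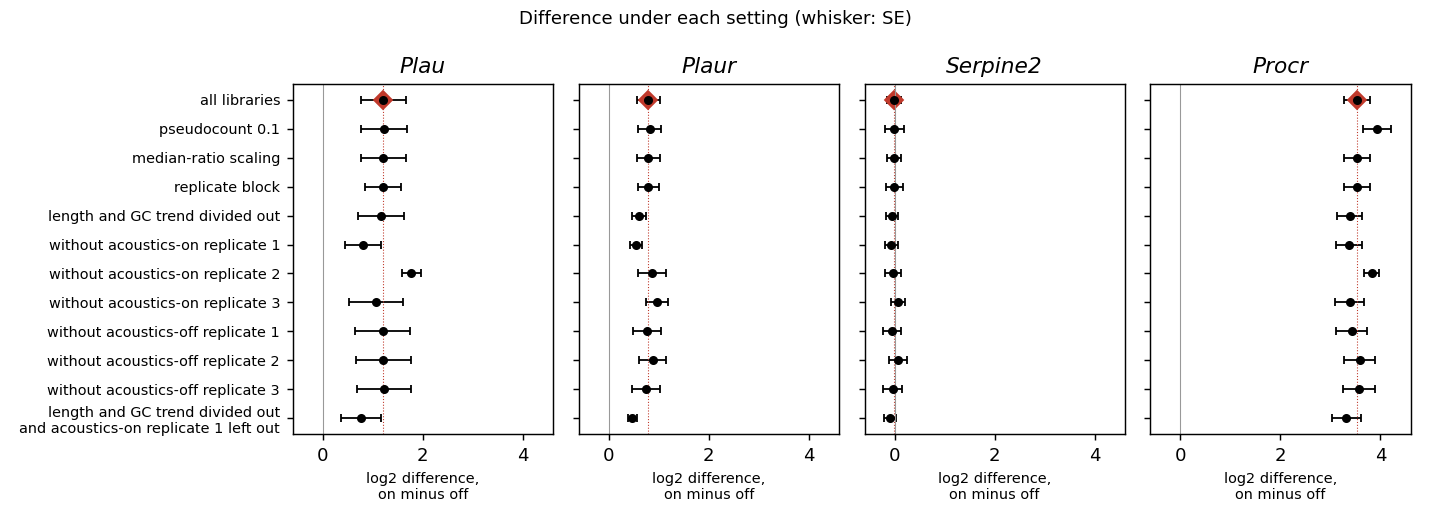
Log2 difference (acoustics on minus off) of each of the 4 genes with all libraries (red diamond) and under the other settings, with SE whiskers. Plau ranges from 0.76 with the trend divided out and acoustics-on replicate 1 left out to 1.77 without acoustics-on replicate 2, and Procr lies between 3.32 and 3.93.

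Levels of the protease, its receptor and the inhibitor Serpine2 were also set against each other, per length, without the length trend divided out. Plau stood at 7.47, 3.06 and 9.49 times the FPKM of Plaur in acoustics-on replicates 1, 2 and 3, against 4.65, 4.03 and 5.04 times in acoustics-off replicates 1, 2 and 3, so this ratio overlapped between the groups. Plau stood at 159, 44.2 and 143 times the FPKM of Serpine2 with acoustics on, against 45.6, 37.0 and 46.8 times with acoustics off. This ratio of Plau to Serpine2 was higher in acoustics-on replicates 1 and 3 than in any acoustics-off library. In acoustics-on replicate 2 it lay within the acoustics-off range. The ratio leaves out Serpinb2, another inhibitor gene, which had 3.79 and 3.58 FPKM in acoustics-on replicates 2 and 3. Serpine2 had 2.52 and 2.07 FPKM there, so the ratio does not stand for all inhibitors.

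The 4 genes differed in the size of their deviations over the 6 libraries. From the highest, the acoustics-on replicates ran 1, 3, 2 for both Procr and Plau, and 1, 2, 3 for both Plaur and Serpine2. The likeness of 2 genes was measured as the root mean square distance between their log2(FPKM + 1) deviations from the acoustics-off mean, over 10802 other genes with a mean of at least 1 on that scale. Plau and Plaur were 0.58 apart, with 297 genes nearer to Plau than Plaur was, and 4068 genes nearer to Plaur than Plau was. Plaur was about as far from Serpine2, at 0.60. Procr was 1.67 from Plau and 1.96 from Plaur. Such a distance takes in the size of the difference by which the genes were chosen, so it does not compare shape alone. The genes nearest to Procr were Cd5l, which encodes a secreted macrophage protein, Hp (haptoglobin), Pdpn (podoplanin) and Ccl2 (a monocyte chemokine), at distances of 0.24, 0.25, 0.32 and 0.35.

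The genes nearest to Plau were Gm7993, Vwf, Cystm1 and Rnf183, at distances of 0.13, 0.19, 0.19 and 0.23. Vwf, the gene of von Willebrand factor, had 7.72, 1.34 and 3.47 FPKM in acoustics-on replicates 1, 2 and 3, against 0.826, 0.741 and 1.30 FPKM in acoustics-off replicates 1, 2 and 3. As for Plau, acoustics-on replicate 2 lay next to the acoustics-off libraries. The genes nearest to Plaur were Timm17a, Eipr1, Gm10039 and Ndufs5, at distances of 0.053 to 0.065, and Timm17a had 111, 66.4 and 60.7 FPKM with acoustics on, against 40.0, 46.5 and 41.6 FPKM with acoustics off. Those nearest to Serpine2 were Asrgl1, Fbxo8, 4931428F04Rik and Zfp692, at distances of 0.039 to 0.048.

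The rest of the plasminogen, protein C and coagulation system was taken from 63 listed genes, of which 41 had values, 16 of these fell below the filter on low values and 25 were tested. Of the 25, 1 rose and 0 fell (limma, adjusted p under 0.05), where 1.50% of all genes tested rose and 0.574% fell. At an unadjusted p under 0.05, 6 were higher and 3 lower. The share of all genes tested at that unadjusted level is not given here. Nothing is therefore read from these counts or from the unadjusted counts of single lists and flanking genes below. Of the 39 with an adjusted p in the authors' deposited table, 8 were higher and 2 lower, against 5.08% and 2.49% of all genes there. The median log2 difference of the 25 was 0.13, beside -0.027 over all genes tested. The count of 1 was 5 without acoustics-on replicate 1, 2 without acoustics-on replicate 2 and 0 without acoustics-on replicate 3 or acoustics-off replicate 1, 2 or 3. It was 6 with the length and GC trend divided out.

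Of the 9 inhibitor genes listed, 4 had values and all 4 were below the filter. Serpinb2, the gene of plasminogen activator inhibitor 2, had 0.053, 3.79 and 3.58 FPKM in acoustics-on replicates 1, 2 and 3, against 0.164, 0.479 and 0 FPKM in acoustics-off replicates 1, 2 and 3. Acoustics-on replicate 1 lay among the acoustics-off libraries and the other two far above, and the gene was below the filter. Its log2 fold change in the authors' deposited table was 3.63 (adjusted p = 0.26 there). Serpinc1, the gene of antithrombin, had 0.934, 0.390 and 0.479 FPKM with acoustics on, against 0.0948, 0.186 and 0.151 FPKM with acoustics off. It was higher in every acoustics-on library, and its log2 fold change in the authors' deposited table was 2.05 (SE 0.49, adjusted p = 0.0013 there). Serpini1, the gene of neuroserpin, had 0.522, 0.238 and 0.288 FPKM with acoustics on, against 0.124, 0.130 and 0.0658 FPKM with acoustics off. Its log2 fold change in the authors' deposited table was 1.72 (SE 0.52, adjusted p = 0.018 there).

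Plat, the gene of tissue plasminogen activator, was at 0.208 to 0.388 FPKM with acoustics on and 0.243 to 0.291 FPKM with acoustics off. In every library its level was far below that of Plau, the other activator, and it was below the filter.

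The 4 plasminogen receptors tested, which hold plasminogen at the membrane, gave 0 calls (limma, 1 higher and 0 lower at an unadjusted p under 0.05, and 1 higher in the authors' deposited table). S100a10, whose product forms a heterotetramer with annexin A2, had 1225, 792 and 575 FPKM in acoustics-on replicates 1, 2 and 3, against 432, 485 and 445 FPKM in acoustics-off replicates 1, 2 and 3. The groups did not overlap, with a log2 difference of 0.86 (SE 0.27, limma adjusted p = 0.17). With the length and GC trend divided out it was 0.53 and passed (limma adjusted p = 0.019). Eno1 averaged 1080.2 ± 254.4 FPKM with acoustics on and 1018.6 ± 24.3 FPKM with acoustics off (SD, n = 3 each, limma adjusted p = 0.87), and a close mouse copy of this gene leaves its value uncertain.

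Of 9 tested partners and clearance receptors of the urokinase receptor, 0 passed (limma, 2 higher and 1 lower at an unadjusted p under 0.05). Of the 12 genes of this list with an adjusted p in the authors' deposited table, which takes in genes below the filter, 2 were higher, Itga5 and Itgb3, and 0 lower. Itga5, a chain of the fibronectin receptor, had 41.7, 37.6 and 52.1 FPKM in acoustics-on replicates 1, 2 and 3, against 28.0, 25.7 and 26.7 FPKM in acoustics-off replicates 1, 2 and 3. The groups did not overlap, with a log2 difference of 0.68 (SE 0.15, limma adjusted p = 0.075), and in the authors' deposited table its adjusted p was 0.0030. It passed without acoustics-on replicate 1 and with the length and GC trend divided out. Itgb2 and Itgam encode the chains of the integrin Mac-1, a partner of the urokinase receptor on macrophages, and their values differed in opposite directions. Itgb2 had 429, 506 and 524 FPKM with acoustics on, against 374, 370.5 and 369 FPKM with acoustics off (log2 difference 0.38, SE 0.14, limma adjusted p = 0.22). It passed without acoustics-on replicate 1 (log2 difference 0.47, limma adjusted p = 0.030) and with the length and GC trend divided out (0.42, limma adjusted p = 0.04). Itgam had 60.0, 115 and 106 FPKM with acoustics on, against 169.9, 140.3 and 143 FPKM with acoustics off (log2 difference -0.73, SE 0.25, limma adjusted p = 0.20). Lrp1, the endocytic receptor that removes inhibited urokinase with its receptor, averaged 223 ± 90.6 FPKM with acoustics on and 228 ± 74.6 FPKM with acoustics off (SD, n = 3 each, limma adjusted p = 0.92). Replicates 1, 2 and 3 had 326, 157 and 185 FPKM with acoustics on, and 313, 173 and 199 FPKM with acoustics off. Replicate 1 was thus the highest in both groups. The SE of the log2 difference was 0.33, and 0.18 with a replicate block.

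Among the substrates, the gelatinase gene Mmp9, whose proenzyme is activated downstream of plasmin, rose. It had 14.9, 8.27 and 15.3 FPKM in acoustics-on replicates 1, 2 and 3, against 2.36, 3.25 and 2.24 FPKM in acoustics-off replicates 1, 2 and 3 (log2 difference 1.90, SE 0.25, limma adjusted p = 0.017). As for Procr and Plau, acoustics-on replicate 2 was the lowest of its group. The call was lost without acoustics-on replicate 3 (adjusted p = 0.073) and without acoustics-off replicate 1, 2 or 3 (limma adjusted p = 0.12, 0.079 and 0.11). Tgfb1, whose latent product plasmin can activate, averaged 135 ± 26.4 FPKM with acoustics on and 129 ± 6.47 FPKM with acoustics off (SD, n = 3 each, limma adjusted p = 0.87).

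Of the other protein C genes, 3 were tested and 0 passed (limma, 0 higher and 2 lower at an unadjusted p under 0.05), and the authors' deposited table has 0 higher and 2 lower. Thbd encodes thrombomodulin, which turns thrombin towards protein C. It had 1.69, 2.42 and 2.95 FPKM in acoustics-on replicates 1, 2 and 3, against 5.12, 4.65 and 4.75 FPKM in acoustics-off replicates 1, 2 and 3 (log2 difference -0.82, SE 0.17, limma adjusted p = 0.068). S1pr1, a sphingosine 1-phosphate receptor through which activated protein C acts in endothelium, had 6.32, 16.1 and 6.38 FPKM with acoustics on, against 31.8, 28.3 and 29.6 FPKM with acoustics off (log2 difference -1.67, SE 0.32, limma adjusted p = 0.058).

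Thbd and S1pr1 were thus lower in every acoustics-on library than in any acoustics-off library without passing the limma threshold. They are the 2 genes counted as lower in the authors' deposited table. The log2 fold change there was -1.04 for Thbd (adjusted p = 0.00092) and -1.64 for S1pr1 (adjusted p = 0.00038). S1pr1 passed with the length and GC trend divided out (limma adjusted p = 0.031) and without acoustics-on replicate 1 (limma adjusted p = 0.045) or 2 (log2 difference -2.07, limma adjusted p = 0.0031). Thbd passed with the trend divided out and without acoustics-on replicate 1. Pros1, the gene of the cofactor protein S, averaged 23.8 ± 1.86 FPKM with acoustics on and 22.8 ± 0.172 FPKM with acoustics off (SD, n = 3 each, limma adjusted p = 0.77). Procr stood at 28.5, 10.5 and 16.2 times the FPKM of Thbd in acoustics-on replicates 1, 2 and 3, and at 0.393, 0.588 and 0.565 times in acoustics-off replicates 1, 2 and 3. The more abundant of these transcripts was therefore Procr with acoustics on and Thbd with acoustics off. The length trend was not divided out of these ratios, and the transcripts differ in length, at 1597 bases for Procr and 3723 for Thbd.

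Among coagulation genes, 5 were tested and 0 passed (limma, 1 higher and 0 lower at an unadjusted p under 0.05). Of the 6 with an adjusted p in the authors' deposited table, 2 were higher, Vwf and F3, and 0 lower. F3, the gene of tissue factor, was named after its values were seen and was below the filter. It had 0.584, 0.279 and 0.852 FPKM in acoustics-on replicates 1, 2 and 3, against 0.0977, 0.0566 and 0.10 FPKM in acoustics-off replicates 1, 2 and 3. It was higher in every acoustics-on library, and the authors' deposited table gives a log2 fold change of 2.75 (SE 0.66, adjusted p = 0.0011 there) on a mean of 23.5 normalised counts. F10, the gene of factor X, averaged 22.9 ± 6.99 FPKM with acoustics on and 25.2 ± 4.83 FPKM with acoustics off (SD, n = 3 each, limma adjusted p = 0.71). Vwf, described above for its likeness to Plau, had a log2 difference of 1.21 (SE 0.44, limma adjusted p = 0.21), and of 0.74 without acoustics-on replicate 1 (limma adjusted p = 0.15).

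**Figure D4:**
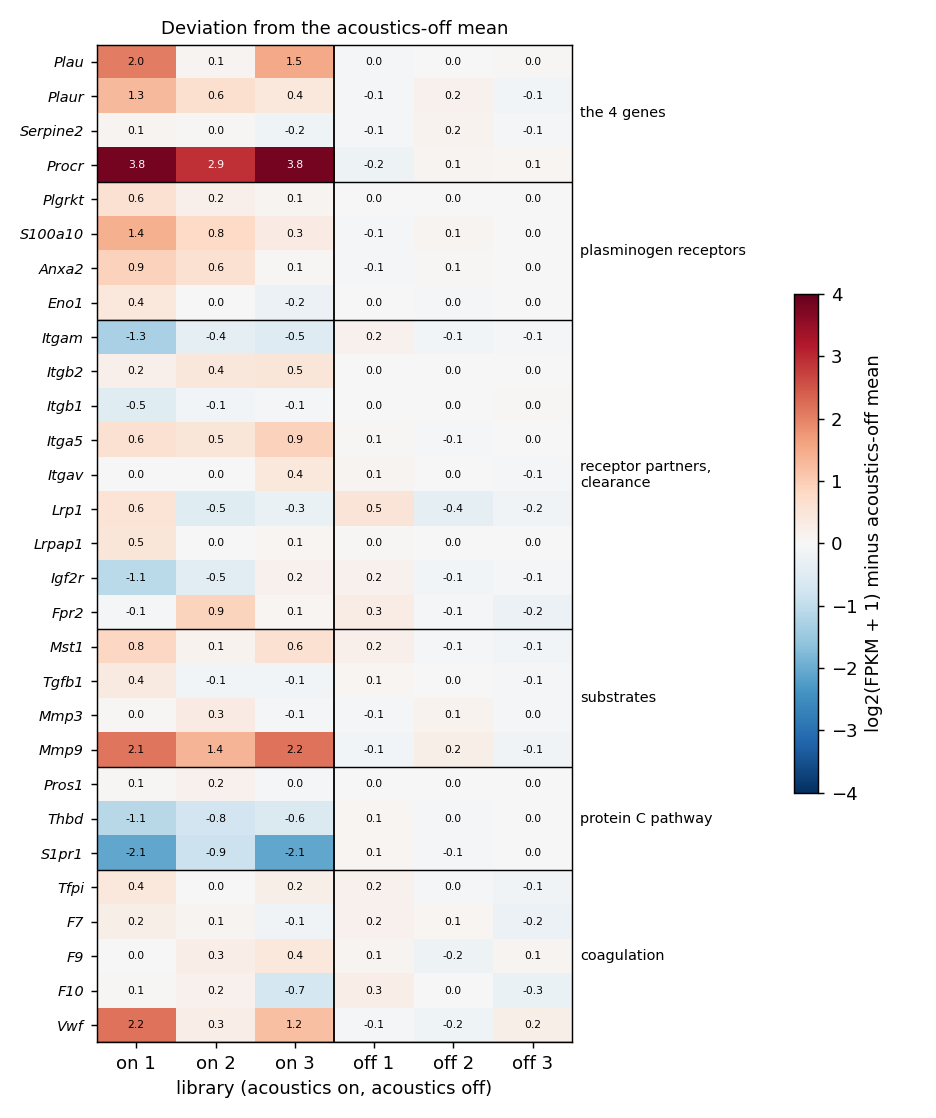
Deviation of log2(FPKM + 1) from the acoustics-off mean in each of the 6 libraries (columns, acoustics on left of acoustics off) for Plau, Plaur, Serpine2, Procr and the 25 other genes tested, grouped by role. In the 3 acoustics-on libraries the deviations of Mmp9 are all positive and those of Thbd and S1pr1 all negative, and Serpine2 is near 0 throughout.

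Procr and Vwf are commonly used endothelial genes and Serpine2 is abundant in fibroblasts, so markers of other cells were checked. All 7 macrophage markers were present, with summed levels of 19751 to 26629 FPKM with acoustics on and 27908 to 30149 FPKM with acoustics off. Lyz2 made up most of each sum, at 16356 to 23205 FPKM with acoustics on and 23951 to 26096 FPKM with acoustics off. For 5 of the 7 every acoustics-on library lay below every acoustics-off library, and 2 overlapped. Over all genes tested, 34.8% did not overlap, in either direction. Of these 7, 0 passed (limma, 0 higher and 2 lower at an unadjusted p under 0.05, and 1 lower in the authors' deposited table). Of the 6 endothelial markers, 3 had values. Vwf made up nearly all of their sum, which was 1.35 to 7.80 FPKM with acoustics on and 0.778 to 1.32 FPKM with acoustics off. The defining endothelial genes Pecam1 and Kdr were at 0 to 0.0410 FPKM with acoustics on and 0.0040 to 0.107 FPKM with acoustics off.

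The 5 fibroblast markers summed to 0.757 to 3.08 FPKM with acoustics on and 1.30 to 2.02 FPKM with acoustics off, and Pdgfra was at or near 0. Of the 4 epithelial markers 1 had values, at 0 to 0.0756 FPKM with acoustics on and 0.0134 to 0.119 FPKM with acoustics off.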

How the data were processed

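Deposited by the authors were FPKM values for each gene in each library. A second file, the authors' own comparison, holds a mean normalised count per gene (a signal, not a raw count), log2 fold changes and their errors, a test score and p-values. The submitters' processing notes name Trim Galore 0.6.8, STAR 2.7.11, Salmon 1.4.0, DESeq2 1.38.2 and GRCm38, with the steps between them not stated. Per the labels, ribosomal RNA was depleted with a kit, but their molecule field reads polyA RNA.

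Since raw counts were not used, limma 3.58.1 in R 4.3.3 was run on log2(FPKM + 1), acoustics on minus off, with a trended, robust prior and Benjamini-Hochberg adjustment at 0.05. The 11664 genes at 0.5 FPKM or more in 3 or more libraries were tested. In simulated data (5 draws) it recovered 52% of genes shifted by 1 on the log2 scale and 86.2% of genes shifted by 2. The draws gave each gene 1 SD in all 6 libraries and no length trend. In the data the median SD was 0.28 with acoustics on and 0.076 off, so these rates need not hold there. The members and lists were chosen with earlier results of these data known. At least 1 gene of this system is not reported here. Pathway genes were named where they passed the threshold or were among the 2 most abundant of their role; others were named after their values were seen. For the length and GC alternative, a loess trend (span 0.5, fitted on coding genes averaging 1 FPKM or more, longest coding transcript) was divided out of each library's FPKM values. Further alternatives were another pseudocount, filters, scaling and prior, a replicate block and each library left out.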

Additional observations from a re-analysis of the deposited data

How the results depend on the processing

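The limit throughout is 3 libraries per group, and 1 library could decide a count. Depth limits low genes most: from the authors' deposited mean counts, counting error alone is 6.83% for Serpine2 and 18.9% for Plat. The 242 genes past the threshold over all genes became 150 with no filter on low values (16108 genes tested), 750 with the length and GC trend divided out, and 17 to 855 with 1 library left out. With the trend divided out and acoustics-on replicate 1 left out together, a setting chosen after seeing the data, they were 1412. The 1 pathway gene became 6 with the trend divided out, 6 with that added setting, and 0 to 5 with 1 library left out. The cause was not tested. The log2 difference of Procr was 3.93 with a pseudocount of 0.1, which by construction understates low genes less; with the added setting that of Plau was 0.76 and that of Plaur 0.475. The filters, the prior and the replicate block could not move the members' differences. Scaling could hardly do so, since its factor was 1.011 in every library. Under the other settings members kept their sign, except Serpine2, which ran from -0.061 to 0.074 with 1 library left out. Uncalled pathway genes near 0 changed sign. Eno1 was at -0.057, Tgfb1 at -0.063 and Lrp1 at 0.35 with the trend divided out, and Eno1 at -0.14 and Tgfb1 at -0.092 with the added setting. With 1 library left out, Eno1 ran from -0.12 to 0.21, Tgfb1 from -0.10 to 0.13, F10 from -0.32 to 0.11 and Lrp1 from -0.37 to 0.19.

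Across all genes tested, same-numbered libraries did not deviate together, so the numbers were not taken as pairs. Correlations of deviations were -0.073, -0.02 and -0.004 for numbers 1, 2 and 3, across genes, which are not independent replicates. Single genes could differ from this, such as Lrp1, highest in replicate 1 of both groups. With a replicate block, 179 genes passed, 133 higher and 46 lower, and 2 pathway genes, S1pr1 in addition (adjusted p = 0.0497). A balanced block such as this cannot change the members' differences, only their SEs. The SE went from 0.45 to 0.36 for Plau, 0.26 to 0.256 for Procr, 0.23 to 0.22 for Plaur and 0.14 to 0.17 for Serpine2.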

Other observations

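The tested genes that flank the 4 genes on either side were chosen by position. Of these 8 genes, 0 passed (limma, 3 at an unadjusted p under 0.05), and 1, Edem2, passed in the authors' deposited table (adjusted p = 0.0085 there). Edem2, which encodes a protein of endoplasmic reticulum quality control and lies 21.6 kb before Procr, had 69.1, 54.7 and 55.3 FPKM in acoustics-on replicates 1, 2 and 3, against 39.0, 41.1 and 39.3 FPKM in acoustics-off replicates 1, 2 and 3 (log2 difference 0.57, limma adjusted p = 0.089). BC029722, 62.3 kb after Procr, had 26.7, 21.1 and 15.8 FPKM with acoustics on, against 19.1, 19.6 and 18.9 FPKM with acoustics off (log2 difference 0.11, limma adjusted p = 0.74). Neither approached the difference of Procr in size. Beside Plau, Camk2g, a calcium-dependent kinase gene 42.6 kb before it, had a log2 difference of 0.11 (limma adjusted p = 0.59). Vcl, the vinculin gene 86.0 kb after Plau, had 2.46, 5.11 and 6.26 FPKM with acoustics on, against 8.08, 7.49 and 7.60 FPKM with acoustics off (log2 difference -0.70, limma adjusted p = 0.22). Smg9, a gene of nonsense-mediated mRNA decay 39.7 kb before Plaur, had 17.0, 16.1 and 17.6 FPKM with acoustics on, against 19.9, 21.4 and 20.9 FPKM with acoustics off (log2 difference -0.28, limma adjusted p = 0.23). The other flank of Plaur and both flanks of Serpine2 had log2 differences of -0.039 to 0.35 (limma adjusted p of 0.30 to 0.86).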
